A study of Mus musculus with 50 samples.

Results

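The DNA replication genes described here are 47 genes of the DNA copying machinery, taken by name from a list. That list was chosen with earlier results of these data known. All 47 genes were among the 35750 genes of the deposited table. They were sorted by role into 9 licensing genes, 12 genes of the replicative helicase, 11 polymerase genes, 11 genes of the sliding clamp and lagging strand, and 4 genes of nucleotide supply. RNA was sequenced from wild-type C57BL6/J mouse embryos cultured from the zygote, in libraries of 5 pooled embryos each. One arm received 200 ng/µl of mRNA for Duxbl, a double homeobox transcription factor, carrying a V5 tag and joined through a 2A peptide to nuclear mCherry. The second arm received the same concentration of mRNA for nuclear mCherry alone, and the third was not injected. Collection times were 28 to 30 h after hCG, the hormone given to trigger ovulation, for late 1-cell embryos, 32 h for early 2-cell embryos and 48 h for late 2-cell embryos. Uninjected and mCherry embryos gave 6 libraries at each stage, and Duxbl embryos gave 4, 5 and 5. All embryos came from superovulated females and were cultured in KSOM medium, and the mRNA was given at the 1-cell stage, so no promoter drives Duxbl here. Nothing in the labels says that the libraries of a group came from separate mothers, so p-values measure the spread between these pools, which may be in part technical.

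Before a genome can be copied, the origin recognition complex, Cdc6 and Cdt1 load rings of the 6 Mcm2 to Mcm7 subunits onto DNA, a step called licensing, which geminin (Gmnn) limits by binding Cdt1. When origins fire, Cdc45 and the GINS complex (Gins1 to Gins4) join the ring to form the active helicase, polymerase alpha with primase lays down primers, and polymerases epsilon and delta extend the leading and lagging strands with the help of the Pcna clamp, its loader (Rfc) and the single-strand binding protein RPA. The early mouse embryo starts on transcripts stored in the oocyte, which are degraded while the embryo's own genome is switched on in the 2-cell stage.

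Promoters of 4 genes are printed, a choice made after values and matches were seen, because the genes carry the main result. Gins3, Mcm3 and Rpa2 were among the members furthest below the controls in Duxbl embryos at the late 2-cell stage. Cdc45 (-3.11) lay further below than Mcm3 (-2.88) but is not printed. Orc5 was the member furthest above. Each run is the 250 bases before the start of the gene, 5′ to 3′ on the gene's strand, from RefSeq on build GRCm38.p6, and not on the mm39 build of the deposited table. Capitals mark the E2F-type letters TTTCCCGC, TTTGGCGC, TTTCGCGC or TTTGCCGC and the letters CCAAT, each on either strand, where matches may overlap.
Gins3, chr8:95633309-95633558, plus strand: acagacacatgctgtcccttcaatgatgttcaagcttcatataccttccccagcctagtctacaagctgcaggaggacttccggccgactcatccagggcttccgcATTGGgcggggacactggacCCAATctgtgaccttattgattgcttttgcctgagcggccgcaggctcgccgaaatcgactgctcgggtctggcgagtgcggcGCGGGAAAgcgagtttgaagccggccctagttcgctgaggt
Mcm3, chr1:20820313-20820562, minus strand: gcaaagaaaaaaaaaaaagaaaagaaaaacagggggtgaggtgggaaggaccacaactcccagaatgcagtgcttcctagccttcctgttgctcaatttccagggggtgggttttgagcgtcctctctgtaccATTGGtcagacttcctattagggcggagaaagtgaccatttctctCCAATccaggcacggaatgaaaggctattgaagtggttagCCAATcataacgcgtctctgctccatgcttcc
Rpa2, chr4:132768110-132768359, plus strand: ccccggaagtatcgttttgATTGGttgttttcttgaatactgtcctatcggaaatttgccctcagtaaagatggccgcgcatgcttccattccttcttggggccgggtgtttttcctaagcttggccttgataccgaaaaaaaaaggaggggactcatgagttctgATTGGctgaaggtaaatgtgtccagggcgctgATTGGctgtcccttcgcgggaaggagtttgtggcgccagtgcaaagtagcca
Orc5, chr5:22550339-22550588, minus strand: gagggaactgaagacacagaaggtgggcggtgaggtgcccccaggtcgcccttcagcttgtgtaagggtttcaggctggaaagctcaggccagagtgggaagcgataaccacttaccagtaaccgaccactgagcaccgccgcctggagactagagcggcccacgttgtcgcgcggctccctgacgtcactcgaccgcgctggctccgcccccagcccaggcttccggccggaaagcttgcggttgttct

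The Gins3 stretch held 1 E2F-type match and 2 CCAAT matches, the Mcm3 and Rpa2 stretches 3 CCAAT matches each, and the Orc5 stretch neither. Mcm3 also held 2 E2F-type matches after its start, outside the printed stretch. In windows of 300 bases (250 before and 50 after the start), which were at hand for 39 of the 47 members, 16 genes (41.0%) held an E2F-type match, against 2.26% of all 32851 promoter windows of that length and 2.6% of the 27025 genes with a window. E2F proteins are the transcription factors best known for driving replication genes in the cell cycle. CCAAT letters stood in 23 of the 39 (59.0%), against 37.4% of all windows and 41.1% of all genes with one. Windows were at hand for 18 of the 24 members that were lower in Duxbl embryos at the late 2-cell stage. They were also at hand for all 7 that were higher and for 14 of the 16 that passed neither way. E2F-type letters were in 9 of the 18 lower members, 2 of the 7 higher and 5 of the 14 that passed neither way. CCAAT letters were in 13 of the 18, 2 of the 7 and 8 of the 14. Unlike Orc5, the higher members Pold3 and Pole4 held E2F-type letters, and Orc2 and Orc6 held CCAAT letters. These matches describe letters and are not binding sites. In the mm39 coordinates of the deposited table, Gins3 (ENSMUSG00000031669) spans 96360081 to 96371688 on chromosome 8, Orc5 (ENSMUSG00000029012) 22691483 to 22755427 on chromosome 5, Cdc45 (ENSMUSG00000000028) 18599197 to 18630737 on chromosome 16 and Tyms (ENSMUSG00000025747) 30263200 to 30278615 on chromosome 5.

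The deposited values were read counts scaled by library and rounded, with totals of 12.0 to 27.0 M per library. Levels are given in CPM, the deposited values scaled to a common library total, so they are relative to all other RNA in the library, and fewer cells cannot be told apart from less RNA per cell. Approximate depths, estimated from the size of 1 read in each library, were 13.1 to 40.7 M reads, and at the late 2-cell stage the Duxbl mean (17.1 M) was below the mCherry (19.8 M) and uninjected (20.4 M) means. Duxbl1, which also counts the injected RNA, stood at 3960 ± 631 CPM (SD, n = 4), 2956 ± 1027 (n = 5) and 2832 ± 1132 (n = 5) in Duxbl embryos at the 3 stages, against group means of 119 to 387 in the controls. The libraries numbered 4 and 5 stood apart from all others at every stage: on the first component of the values after each arm's mean was removed, they lay at 28.5 to 44.4 and the others at -34.3 to -8.65 at the late 1-cell stage, and they did not overlap with the others at the later stages. Printed CPM put all 50 libraries on 1 scale, while each test rescaled the libraries it compared, and differences on the log2(CPM + 1) scale understate the change of low genes. The kit does not mark strand, and exons of an opposite-strand gene cover 78.8% of the length of Fen1 and 70.7% of that of Gins2, so reads of these pairs cannot be told apart. These overlaps, and the lengths behind levels per kb, come from an annotation on GRCm38, not mm39. The annotation also lists processed copies of Pcna and Tyms, which could share their reads.

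**Figure D1:**
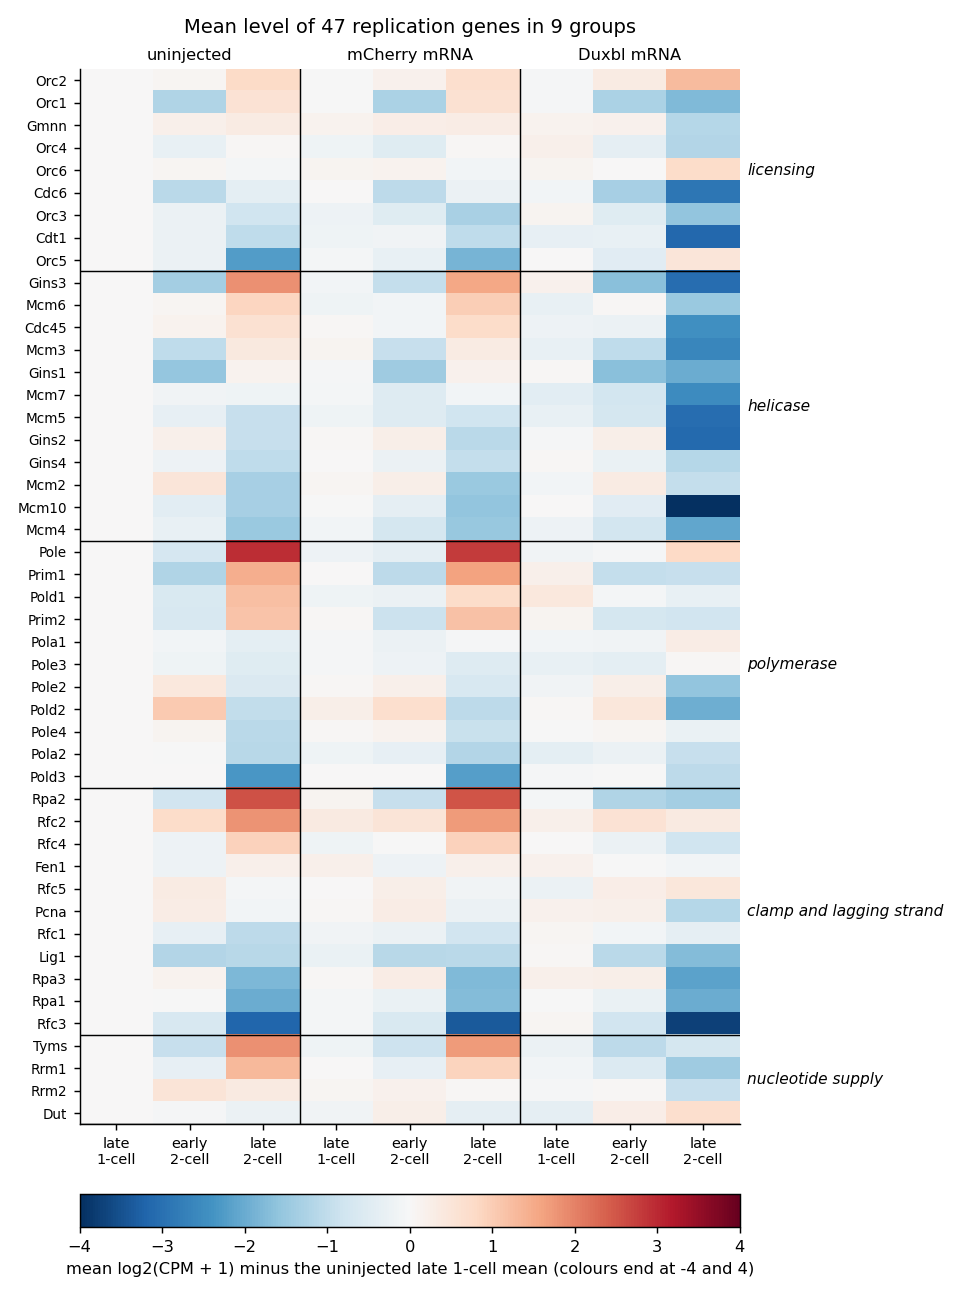
Mean log2(CPM + 1) of each of the 47 genes (top to bottom, by role) in 9 groups (left to right), minus its mean in uninjected late 1-cell embryos, with blue below and red above. Uninjected and mCherry columns look alike, and Duxbl columns differ from them at the late 2-cell stage, where Mcm10, Cdt1 and Gins2 are among the darkest blue. Rfc3 is dark blue at that stage in every arm (-3.18 in uninjected, -3.35 in mCherry and -3.74 in Duxbl embryos).

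Uninjected embryos gave the normal course. Levels per kb of merged exon can be compared between genes: at the late 1-cell stage Orc6 (399 ± 43.7 CPM per kb, SD, n = 6), Rpa3 (386 ± 43.3) and Pole4 (383 ± 47.1) led the members, while the catalytic subunits Pole (0.70 ± 0.287) and Pold1 (0.199 ± 0.120), with the flap nuclease Fen1 (0.182 ± 0.0961), came last. The first 3 did not differ beyond their spread. The rank of Fen1 is uncertain, because most of its length overlaps an opposite-strand gene whose reads cannot be told apart from its own. Pole4, an accessory subunit of polymerase epsilon, was thus present at a far higher level per kb than Pole, the catalytic subunit of the same enzyme.

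From the late 1-cell to the early 2-cell stage, 6 members fell and none rose at a limma adjusted p under 0.05, the threshold used throughout, where 1.77% of all genes fell and 1.12% rose. Before adjustment 17 members were under 0.05. The members that fell were the GINS subunit Gins1 (-1.54, SE 0.26, on the log2(CPM + 1) scale), the origin complex subunit Orc1 (-1.22, SE 0.25), the primase subunit Prim1 (-1.22, SE 0.22), the lagging-strand ligase Lig1 (-1.16, SE 0.25), the loader Cdc6 (-1.07, SE 0.31) and thymidylate synthase Tyms (-0.92, SE 0.23). Without the libraries numbered 4 and 5 the count was 3, with Orc1, Cdc6 and Tyms no longer past the threshold. Cdc6 also lost its call when single libraries of either stage were left out (numbers 1, 3, 4, 6 or 7 of the late 1-cell group, or 3, 4 or 5 of the early 2-cell group), and Tyms when number 3 of either group was. In Duxbl embryos 5 members fell over the same step, and none rose, against 0.837% and 0.0833% of all genes. Gins3 was also lower in uninjected embryos, without passing (-1.35, SE 0.41, limma adjusted p = 0.0611). Conversely, Cdc6 (-1.21, SE 0.36) and Tyms (-0.81, SE 0.27) were lower in Duxbl embryos without passing. The 5 called in Duxbl embryos were Gins3 (-1.83, SE 0.48), Gins1 (-1.72, SE 0.31), Orc1 (-1.23, SE 0.29), Prim1 (-1.18, SE 0.25) and Lig1 (-1.10, SE 0.29). None of the 5 passed without the libraries numbered 4 and 5, a removal that leaves only numbers 6 and 7 in the late 1-cell group. The differences were then -1.47 for Gins1, -1.14 for Lig1, -1.13 for Gins3, -1.12 for Prim1 and -0.80 for Orc1. Leaving out 1 library left 1 to 5 of the 5 calls: 1 without late 1-cell number 7, 2 without any 1 of late 1-cell numbers 4, 5 and 6 or early 2-cell numbers 4 and 5.

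From the early to the late 2-cell stage, the time of major genome activation, 15 members rose and 17 fell in uninjected embryos, where 30.8% and 26.3% of all genes did. With library totals alone as the scaling, the split was 19 and 14. The values of the 2 stages did not overlap in 25 members, where 33.8% of all genes did not overlap. The largest rises were of Pole (3.63, SE 0.34), which makes the leading strand, of Rpa2 (3.30, SE 0.32), a subunit of RPA, and of Gins3 (3.18, SE 0.41). Tyms (2.75, SE 0.23), Prim1 (2.68, SE 0.22), the polymerase delta catalytic subunit Pold1 (1.83, SE 0.37), Orc1 (1.80, SE 0.25) and the primase subunit Prim2 (1.78, SE 0.25) followed. Pold1 was low, at 0 to 0.266 CPM at the early stage and 0.101 to 18.5 CPM (median 2.47) at the late stage. Its 2 stages overlapped, and the highest late value was of library 4. Gins1 (1.68, SE 0.26), the ribonucleotide reductase subunit Rrm1 (1.62, SE 0.27), Mcm3 (1.42, SE 0.35), the clamp loader subunits Rfc4 (1.12, SE 0.29) and Rfc2 (1.07, SE 0.26), Mcm6 (0.78, SE 0.25) and Orc2 (0.71, SE 0.13) rose less.

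The genes that fell in this step came from every role except nucleotide supply. The clamp loader subunit Rfc3 fell by 2.53 (SE 0.29), the polymerase delta subunits Pold3 by 2.35 (SE 0.15) and Pold2 by 2.02 (SE 0.31), and Orc5 by 2.01 (SE 0.17). Rpa1 fell by 1.99 (SE 0.29), Rpa3 by 1.97 (SE 0.19), Mcm2 by 1.80 (SE 0.20), Mcm4 by 1.18 (SE 0.20), the polymerase epsilon subunit Pole4 by 1.17 (SE 0.14) and Gins2 by 1.13 (SE 0.25). The polymerase alpha subunit Pola2 fell by 1.09 (SE 0.20), Pole2 by 1.00 (SE 0.21), Mcm10 by 0.89 (SE 0.27), Gins4 by 0.81 (SE 0.17), Cdt1 by 0.78 (SE 0.27), Rfc1 by 0.72 (SE 0.15) and Pcna by 0.42 (SE 0.15). Subunits of the same complex thus went opposite ways. Rpa2 rose while Rpa1 and Rpa3 fell, and Mcm3 and Mcm6 rose while Mcm2 and Mcm4 fell. Gins1 and Gins3 rose while Gins2 and Gins4 fell, although reads of Gins2 cannot be told apart from those of an opposite-strand gene. The Pcna call was lost with library totals alone (-0.04, limma adjusted p = 0.805), without early 2-cell library 1 or 7, late 2-cell library 1, or the libraries numbered 4 and 5. Totals alone also ended the calls of Cdt1 (-0.41, adjusted p = 0.164) and Mcm10 (-0.53, adjusted p = 0.0794), leaving out early 2-cell library 1 that of Cdt1, and the deposited scale that of Mcm6 (0.57, adjusted p = 0.0609).

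The control injection did not move these genes past the threshold. Between mCherry and uninjected embryos 0 of 47 members were called at the late 1-cell stage, 0 of 46 at the early 2-cell stage and 0 of 47 at the late 2-cell stage, with limma and with its precision weights (voom), and 0% of all genes were called at each. Before adjustment, 0, 3 and 0 members had p under 0.05, and the largest member difference was 0.53 on the log2 scale.

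Duxbl mRNA also gave no call among these genes at the first 2 stages. At the late 1-cell stage 0 of 47 members were called against mCherry embryos, where 0.00481% of all genes were higher and 0.0144% lower, and 3 members (Orc4, Mcm3 and Mcm7) had an unadjusted p under 0.05. At the early 2-cell stage 0 of 46 were called, where 0.0236% of all genes were higher and 0.354% lower, and 0 had an unadjusted p under 0.05 (Fen1 was below the filter on low values). Voom weights called 0 at both stages. The largest member difference was 0.54 at the late 1-cell stage and 0.70 at the early 2-cell stage, in size, on the log2 scale.

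At the late 2-cell stage 24 members were lower and 7 higher in Duxbl than in mCherry embryos, and 16 passed in neither direction. Over all genes tested 28.9% were lower and 27.3% higher. The median member difference was -0.87, against -0.04 over all genes. The values of the 2 groups did not overlap in 23 members, 19 lower and 4 higher, where 34.6% of all genes did not overlap. With library totals alone as the scaling, which moved the median of all genes to -0.26, 27 members were lower and 4 higher, and without the libraries numbered 4 and 5 the counts were 27 and 8.

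**Figure D2:**
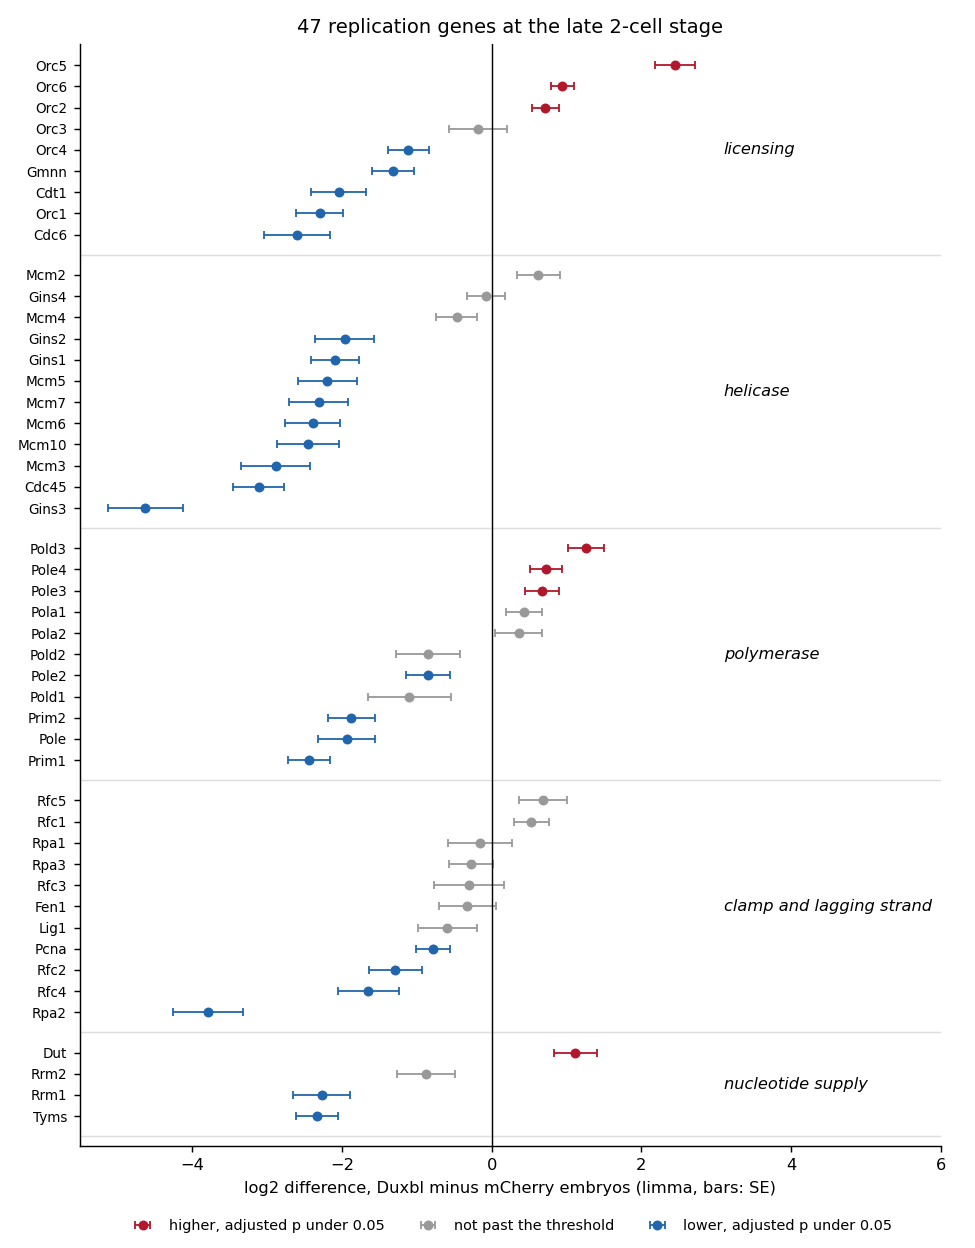
log2 difference between Duxbl and mCherry embryos at the late 2-cell stage for the 47 genes by role (points, bars: limma SE), coloured by the call. The helicase group holds 9 lower and 0 higher members, with Gins3 furthest left at -4.62, and Orc5 lies furthest right at 2.45.

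Beside these counts, summed markers also differed at this stage. The 6 oocyte and early embryo genes (such as Zp3 and Gdf9) summed to 3440 to 4600 CPM in Duxbl libraries and 893 to 1490 in mCherry libraries, and the 4 genes of the 2-cell stage (such as Zscan4d) to 2.65 to 136 against 280 to 1560. Markers of cumulus cells (7 of 8 in the table) summed to 13.9 to 52.7 CPM in Duxbl and 9.73 to 17.8 in mCherry libraries, of the oviduct (5 of 5) to 74.9 to 178 and 46.8 to 157, of sperm (6 of 6) to 3.43 to 31.3 and 3.20 to 9.88, and of blood (4 of 5) to 0 to 13.0 and 25.9 to 43.9. In Duxbl libraries 1 of the cumulus genes was at 0 throughout. The part of these sources in the results below was not tested.

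The licensing genes split, with 3 higher, 5 lower and 1 in neither direction, where 27.3% of all genes were higher and 28.9% lower. Orc5 stood at 582, 758, 378, 727 and 819 CPM in the Duxbl libraries numbered 1, 3, 4, 6 and 7, the order used for every gene below, and at 85.0 to 194 (median 120) in the 6 mCherry libraries. No Duxbl library came near the mCherry range, and the difference was 2.45 (SE 0.27, limma adjusted p = 9.88e-08). Orc6 was at 957, 944, 954, 1050 and 1410 CPM against 528 to 679 (median 572), a difference of 0.94 (SE 0.15, adjusted p = 1.76e-05). Orc2 was at 249, 280, 244, 246 and 208 CPM against 138 to 196 (median 154), a difference of 0.72 (SE 0.18, adjusted p = 0.00171). All 5 Duxbl libraries exceeded all mCherry libraries for Orc6 and Orc2 as well, although the Orc2 call was lost with library totals alone (0.36, adjusted p = 0.0761).

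Cdc6, Cdt1 and the origin complex subunit Orc1 went the other way. Cdc6, the ATPase that brings the Mcm ring to the origin complex, was at 17.8, 3.92, 1.96, 21.2 and 11.3 CPM against 35.5 to 80.8 (median 66.0), a difference of -2.60 (SE 0.44, limma adjusted p = 3.23e-05). Orc1, the largest origin complex subunit, was at 27.0, 6.02, 35.1, 20.2 and 25.9 CPM against 78.6 to 148 (median 113), or -2.30 (SE 0.32, adjusted p = 2.71e-06). Cdt1, which escorts the ring, was at 21.8, 17.4, 18.7, 11.3 and 21.0 CPM against 37.3 to 152 (median 91.1), or -2.04 (SE 0.36, adjusted p = 6.01e-05). For all 3 genes every Duxbl library lay below every mCherry library. Gmnn, the Cdt1 inhibitor, was also lower (-1.31, SE 0.28), as was Orc4 (-1.11, SE 0.27), and Orc3 differed by -0.18 (SE 0.38, adjusted p = 0.701).

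The helicase genes were lower as a group in count: 9 of 12 fell below mCherry and 0 rose, with a median difference of -2.25. Of all genes, 28.9% were lower and 27.3% higher. Gins3 was at 4.65, 0.147, 6.71, 1.07 and 0.949 CPM against 30.4 to 162 (median 71.7), a difference of -4.62 (SE 0.50, limma adjusted p = 9.89e-08). The highest Duxbl library was below the lowest mCherry library, and 1 Duxbl library was close to 0. Cdc45, which completes the active helicase with GINS, was at 36.2, 26.0, 18.7, 14.99 and 7.999 CPM against 117 to 267 (median 192), or -3.11 (SE 0.34, adjusted p = 1.27e-07). Mcm3 was at 13.6, 0.539, 8.72, 6.72 and 15.5 CPM against 32.3 to 83.2 (median 65.7), or -2.88 (SE 0.46, adjusted p = 1.65e-05). Neither gene overlapped between the groups.

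The rest of the helicase group was uneven. Mcm10 (-2.45, SE 0.42), Mcm6 (-2.39, SE 0.37), Mcm7 (-2.31, SE 0.39) and Mcm5 (-2.19, SE 0.39) were lower, as were Gins1 (-2.10, SE 0.32) and Gins2 (-1.96, SE 0.40). Mcm2 (0.63, SE 0.29, limma adjusted p = 0.0681), Mcm4 (-0.47, SE 0.28, adjusted p = 0.157) and Gins4 (-0.07, SE 0.26, adjusted p = 0.819) did not pass. Hence 4 of the 6 Mcm2 to Mcm7 subunits and 3 of the 4 GINS subunits were called lower. The GINS count includes Gins2, whose overlap with an opposite-strand gene makes its level uncertain.

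**Figure D3:**
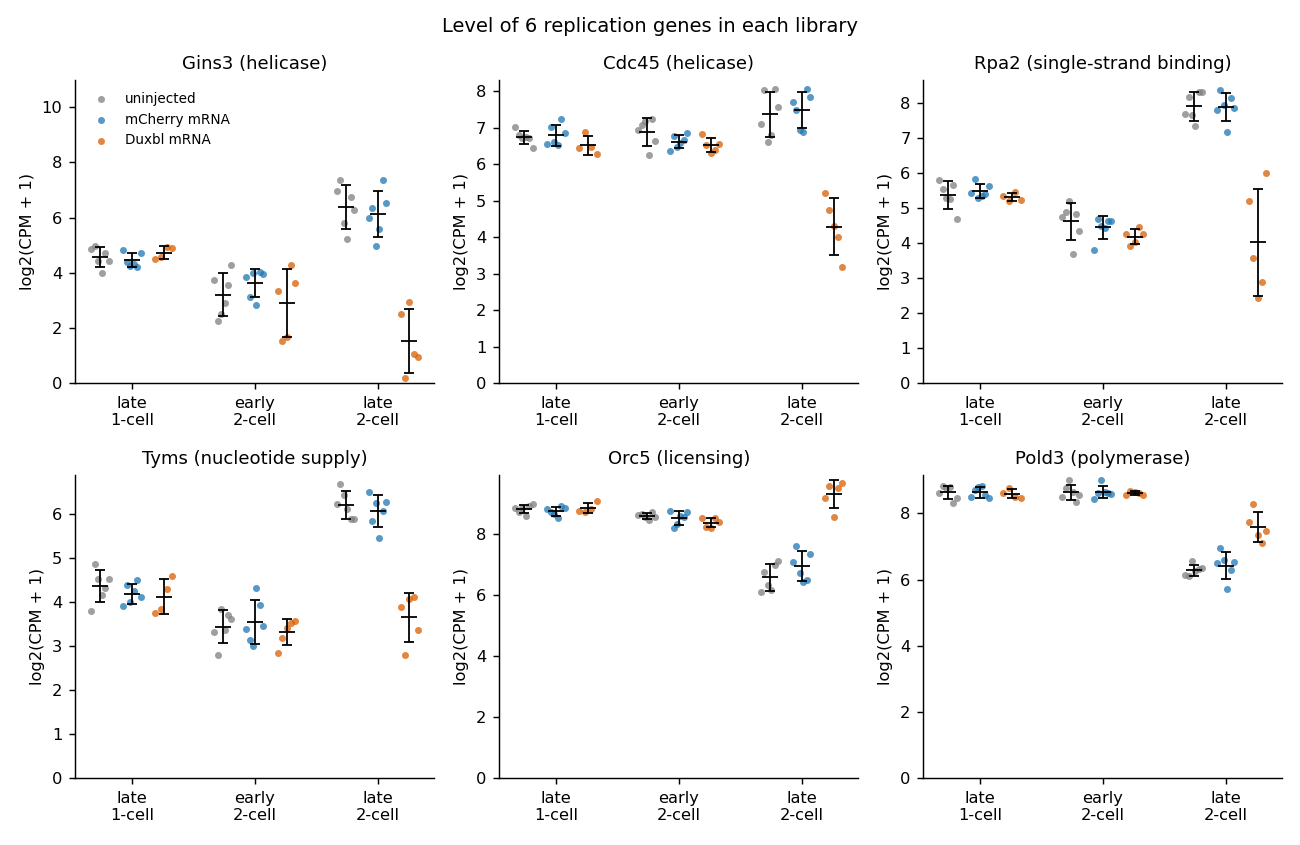
log2(CPM + 1) of 6 genes in every library (points, spread sideways for visibility) by stage and arm, with the group mean and SD (black). At the late 2-cell stage Duxbl libraries lie below both control arms for Gins3, Cdc45, Rpa2 and Tyms and above both for Orc5 and Pold3, while at the earlier stages the arms overlap.

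Among the 11 polymerase genes 4 were lower, 3 higher and 4 in neither direction, near the shares over all genes (28.9% lower and 27.3% higher). Prim1, the catalytic primase subunit, was at 18.7, 7.44, 21.6, 10.97 and 12.3 CPM against 59.6 to 99.4 (median 83.4), a difference of -2.44 (SE 0.28, limma adjusted p = 2.34e-07). Pole was at 9.81, 13.6, 13.0, 3.31 and 10.8 CPM against 28.3 to 61.3 (median 41.2), or -1.93 (SE 0.38, adjusted p = 0.000173). Prim2 was at 11.8, 4.41, 10.8, 4.67 and 9.49 CPM against 25.3 to 51.6 (median 30.8), or -1.87 (SE 0.32, adjusted p = 3.06e-05). The groups did not overlap for any of these 3 genes.

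The higher polymerase genes were small or accessory subunits. Pold3 was at 212, 312, 161, 136 and 177 CPM against 51.2 to 122 (median 90.1), a difference of 1.26 (SE 0.24, limma adjusted p = 0.000102), with all Duxbl libraries above all mCherry libraries. Pole4 was at 436, 788, 430, 878 and 849 CPM against 334 to 511 (median 432), or 0.73 (SE 0.21, adjusted p = 0.00603). Pole3, which pairs with Pole4 in polymerase epsilon, was at 233, 449, 179, 411 and 240 CPM against 166 to 236 (median 186), or 0.67 (SE 0.23, adjusted p = 0.0158). These last 2 genes overlapped between the groups: Duxbl libraries 1 and 4 lay inside the mCherry range. The Pole4 call was lost with library totals alone (0.37, adjusted p = 0.113) and without Duxbl library 6 (0.53, adjusted p = 0.0538) or 7 (0.51, adjusted p = 0.055). That of Pole3 was lost with totals alone (0.32, adjusted p = 0.229), with no filter (0.50, adjusted p = 0.0836), with scaling factors taken before the filter (0.50, adjusted p = 0.065) and without Duxbl library 3 (0.40, adjusted p = 0.139) or 6 (0.45, adjusted p = 0.118). Pole2 was lower (-0.85, SE 0.30), and Pola1 (0.43), Pola2 (0.36), Pold2 (-0.85) and Pold1 (-1.10) did not pass. Polymerase epsilon thus had its catalytic subunit Pole and Pole2 lower beside Pole3 and Pole4 higher.

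Of the 11 clamp and lagging-strand genes 4 were lower and 0 higher, where 28.9% of all genes were lower and 27.3% higher. Rpa2 was at 36.1, 11.1, 4.41, 6.40 and 63.0 CPM against 145 to 332 (median 239), a difference of -3.78 (SE 0.47, limma adjusted p = 5.62e-07). Its Duxbl libraries spread widely but none reached the mCherry range. Rfc4 was at 4.83, 3.58, 6.96, 19.0 and 16.7 CPM against 19.9 to 41.2 (median 33.8), or -1.64 (SE 0.41, adjusted p = 0.0016), without overlap. Rfc2 was at 13.6, 8.87, 12.6, 4.81 and 4.38 CPM against 12.1 to 35.3 (median 24.5), or -1.29 (SE 0.35, adjusted p = 0.00359), with 2 Duxbl libraries inside the mCherry range. Pcna, the clamp itself, was lower by a smaller step (-0.78, SE 0.23, adjusted p = 0.00611). The 2 partners of Rpa2, Rpa1 (-0.16, SE 0.43) and Rpa3 (-0.27, SE 0.30), did not pass, nor did Rfc1 (0.53), Rfc3 (-0.30), Rfc5 (0.69), Fen1 (-0.33) and Lig1 (-0.59). Fen1 was near 0 in all groups, with means of 0.253 to 0.687 CPM, a level that its overlap with an opposite-strand gene makes uncertain.

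In nucleotide supply Tyms, which makes the thymidine nucleotide, was at 13.8, 5.93, 15.8, 16.4 and 9.26 CPM against 42.9 to 88.6 (median 70.6), a difference of -2.34 (SE 0.28, limma adjusted p = 3.47e-07). Rrm1, the large subunit of ribonucleotide reductase, was at 19.4, 6.86, 13.8, 6.58 and 6.96 CPM against 24.5 to 92.1 (median 62.7), or -2.27 (SE 0.38, adjusted p = 3.16e-05). Neither overlapped. Dut, which removes dUTP so that uracil stays out of DNA, went up: it was at 513, 606, 256, 412 and 445 CPM against 87.1 to 299 (median 236), or 1.12 (SE 0.29, adjusted p = 0.00215), with Duxbl library 4 inside the mCherry range. Rrm2, the small reductase subunit, did not pass (-0.87, SE 0.39, adjusted p = 0.0593).

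Gins3, Cdc45 and Tyms were followed through all groups. Gins3 in the Duxbl libraries was at 21.7, 22.6, 29.8 and 29.1 CPM at the late 1-cell stage (numbers 4 to 7) and at 9.27, 1.92, 2.17, 18.5 and 11.6 CPM at the early 2-cell stage (numbers 3 to 7), where the mCherry ranges were 17.7 to 27.2 (median 19.5) and 6.19 to 15.2 (median 14.0) and the uninjected ranges 15.1 to 30.6 (median 22.9) and 3.79 to 18.4 (median 8.66). Its lowest 2 early values were of the libraries numbered 4 and 5. Cdc45 was at 85.5, 117, 87.6 and 76.5 and then at 111, 90.9, 77.9, 83.1 and 92.9 CPM in Duxbl libraries, with mCherry ranges of 90.3 to 149 (median 105) and 81.0 to 115 (median 97.0) and uninjected ranges of 86.6 to 127 (median 105) and 74.8 to 148 (median 128). Tyms was at 12.5, 13.2, 18.5 and 23.1 and then at 6.22, 8.07, 9.68, 10.5 and 10.8 CPM in Duxbl libraries, with mCherry ranges of 13.9 to 21.5 (median 17.1) and 7.04 to 18.9 (median 9.73) and uninjected ranges of 12.9 to 27.9 (median 20.4) and 5.91 to 13.4 (median 10.3). The arms overlapped at both stages for all 3 genes. At the late 2-cell stage uninjected embryos held 36.0 to 164 CPM of Gins3 (median 92.0), 96.8 to 264 of Cdc45 (median 162) and 57.4 to 102 of Tyms (median 70.7), all above the Duxbl libraries.

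The difference at the late 2-cell stage was set against the normal step from the early to the late 2-cell stage, a comparison of uninjected libraries that shares none with Duxbl minus mCherry. Of the 15 members that rose in the normal step, 13 (86.7%) were lower in Duxbl embryos, where 61.2% of all genes that rose were. Orc2 was the member that rose and was higher, and Pold1 the one that passed neither way. Of the 17 members that fell in the normal step, only Orc5, Pold3 and Pole4 (17.6%) were higher in Duxbl embryos, where 59.7% of all genes that fell were. Another 5 of the 17 (29.4%), namely Cdt1, Mcm10, Gins2, Pole2 and Pcna, were lower still, where 3.67% of all genes that fell were. Among the 15 members with no call in the normal step, 6 (40%) were lower, namely Cdc45, Cdc6, Mcm7, Mcm5, Gmnn and Orc4, against 14.5% of all such genes, and Orc6, Pole3 and Dut (20%) were higher, where 25.8% of all such genes were. No test was made of these shares.

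**Figure D4:**
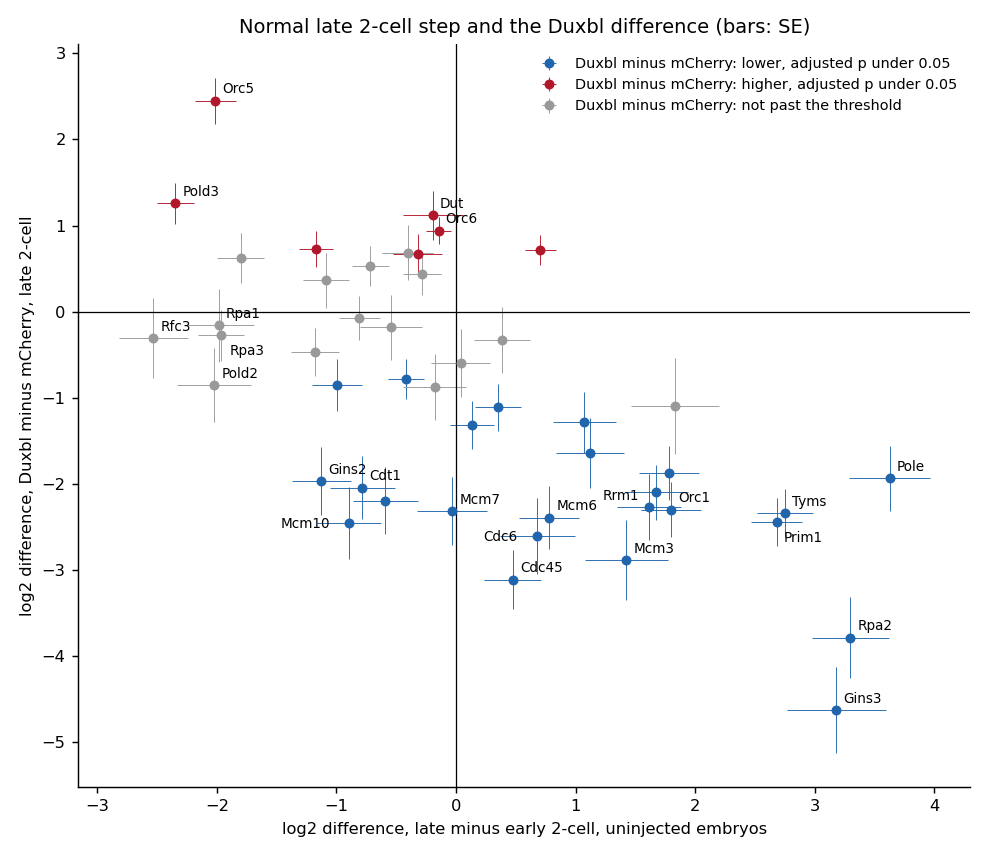
For each of the 47 genes, the log2 difference between late and early 2-cell uninjected embryos (x) and between Duxbl and mCherry embryos at the late 2-cell stage (y), with SE bars and colours for the call on the y axis. Most genes on the right, such as Gins3 and Rpa2, lie below 0, while Rpa1, Rpa3, Rfc3 and Pold2 on the left lie near or below 0 and not above it.

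Within Duxbl embryos, the step from the early to the late 2-cell stage raised 4 members and lowered 27, where 20.3% of all genes rose and 18.6% fell. Of the 15 members that rose in uninjected embryos, 1 rose (Orc2), 4 fell (Gins3, Mcm3, Mcm6 and Rrm1) and 10 were not called, among them Tyms (0.34, SE 0.26), Prim1 (0.04, SE 0.24), Rpa2 (-0.17, SE 0.35) and Pole (0.83, SE 0.37). Of all genes that rose in uninjected embryos, 24.8% rose, 9.66% fell and 65.5% were not called in Duxbl embryos, so the share of members not called (66.7%) was that of all genes. Of the 17 that fell in uninjected embryos, 14 (82.4%) also fell in Duxbl embryos, where 42.4% of all such genes did. Rpa3 fell by 2.37 (SE 0.21) in Duxbl embryos, Pold2 by 2.40 (SE 0.34), Rfc3 by 2.97 (SE 0.32), Rpa1 by 1.71 (SE 0.32) and Mcm2 by 1.30 (SE 0.22). Gins2, with the limit of its opposite-strand overlap, fell by 3.35 (SE 0.27), Mcm10 by 3.64 (SE 0.29) and Cdt1 by 2.85 (SE 0.30). Pole2 fell by 1.82 (SE 0.23), Mcm4 by 1.34 (SE 0.22) and Pcna by 1.32 (SE 0.17). Pold3 fell by 1.03 (SE 0.17), Gins4 by 0.88 (SE 0.19) and Pola2 by 0.66 (SE 0.21). Orc5, the exception, rose by 0.93 (SE 0.19), and Pole4 (-0.35, SE 0.15) and Rfc1 (-0.25, SE 0.17) were not called.

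A further 9 of the 15 members that had no call in the normal step (60%) fell in Duxbl embryos, where 10.5% of all such genes did. They were Mcm5 (-2.36, SE 0.30), Cdc45 (-2.23, SE 0.26), Mcm7 (-1.79, SE 0.32), Cdc6 (-1.58, SE 0.34), Gmnn (-1.29, SE 0.20), Orc3 (-1.09, SE 0.28), Rrm2 (-0.98, SE 0.29), Orc4 (-0.79, SE 0.21) and Lig1 (-0.67, SE 0.27). Mcm3 fell by 1.59 (SE 0.38), Mcm6 by 1.53 (SE 0.28), Gins3 by 1.37 (SE 0.45) and Rrm1 by 0.88 (SE 0.29). Orc2 (0.96, SE 0.14), Orc6 (0.71, SE 0.12) and Pola1 (0.43, SE 0.17), the polymerase alpha catalytic subunit, rose. All helicase genes except Gins1 (-0.33, SE 0.29) were therefore called lower at the end of the 2-cell stage than at its start. Leaving out 1 library ended the call for Gins3 (early 2-cell number 6 or late 2-cell number 3), for Rrm2 (late 2-cell number 4), for Pola1 (early 2-cell number 5 or late 2-cell number 1, 3 or 4) and for Lig1 (7 of the 10 libraries). Without the libraries numbered 4 and 5 the calls of Rrm2 (-0.54, limma adjusted p = 0.109), Pola1 (0.46, adjusted p = 0.106), Lig1 (-0.69, adjusted p = 0.0645) and Pola2 (-0.54, adjusted p = 0.124) were lost, and with the replicate number as a block those of Pola1 (0.42, adjusted p = 0.0573) and Lig1 (-0.67, adjusted p = 0.0506).

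The change in the Duxbl effect between the early and late 2-cell stages was tested itself. The effect was lower at the late stage in 24 members and higher in 7, where 23.6% and 21.3% of all genes were. Gins3 differed by -3.87 (SE 0.61), Rpa2 by -3.60 (SE 0.48), Cdc45 by -3.10 (SE 0.35), Mcm3 by -2.86 (SE 0.52), Mcm6 by -2.62 (SE 0.37), Prim1 by -2.61 (SE 0.32) and Tyms by -2.18 (SE 0.35). Orc5 differed by 2.51 (SE 0.25), Pold3 by 1.19 (SE 0.23), Dut by 0.98 (SE 0.37), Orc6 by 0.97 (SE 0.16), Pole3 by 0.74 (SE 0.30), Pole4 by 0.68 (SE 0.21) and Orc2 by 0.46 (SE 0.19). With library totals alone as the scaling, 28 were lower and 3 higher, with Pole4, Dut, Pole3 and Orc2 not past the threshold. Leaving out 1 library ended the call of Orc2 in 15 of 22 removals, of Pole3 in 12 and of Dut in 5, and that of Orc2 was also lost without the libraries numbered 4 and 5 (0.31, limma adjusted p = 0.293) and with the replicate number as a block (0.44, adjusted p = 0.0526). The count of higher members was 4 without mCherry early 2-cell number 7, mCherry late 2-cell number 5, Duxbl early 2-cell number 6 or Duxbl late 2-cell number 3.

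Other genes of the pathway, in 5 lists, were not called between Duxbl and mCherry embryos at the first 2 stages and moved in both directions at the late 2-cell stage. The counts of each list stand beside 28.9% of all genes lower and 27.3% higher at that stage. Of 12 origin firing genes 6 were lower and 3 higher: Cdk2 (-3.90, SE 0.45, limma adjusted p = 2.42e-07), a kinase that triggers firing, and Recql4 (-3.70, SE 0.49, adjusted p = 1.5e-06), which helps build the helicase, were lower, and Dbf4 (1.65, SE 0.17, adjusted p = 3.13e-08), the activator of the Cdc7 kinase, was higher. Of 19 genes of fork protection and Okazaki fragment processing 11 were lower and 2 higher, led by the RNase H2 subunit Rnaseh2a (-2.14, SE 0.32, adjusted p = 7.55e-06), the clamp unloader Atad5 (-1.69, SE 0.28, adjusted p = 2.12e-05) and the topoisomerase Top2a (-1.60, SE 0.27, adjusted p = 2.72e-05). Of 17 further nucleotide supply genes 10 were lower and 4 higher. Impdh2, which makes guanine nucleotides, was at 2.29 to 6.51 CPM in Duxbl and 128 to 422 in mCherry libraries (-5.48, SE 0.34, adjusted p = 4.33e-11). Dtymk, the thymidylate kinase downstream of Tyms (-3.47, SE 0.34, adjusted p = 1.88e-08), and Cad, which starts pyrimidine synthesis (-4.84, SE 0.52, adjusted p = 8.46e-08), followed.

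The 13 E2F and pocket protein genes went mostly the other way, with 7 higher and 1 lower, where 27.3% of all genes were higher and 28.9% lower. E2f5 (2.45, SE 0.27, limma adjusted p = 1.24e-07), Tfdp1 (1.70, SE 0.22, adjusted p = 1.21e-06) and E2f4 (2.25, SE 0.32, adjusted p = 3.09e-06) had the smallest p-values. Tfdp1 is a partner with which many E2F proteins bind DNA. E2f4 and E2f5 are known mainly as repressors. Of 10 ATR checkpoint genes 4 were higher and 2 lower, counts not far from those shares of all genes. The kinase Chek1 was at 552 to 955 CPM in Duxbl and 117 to 227 in mCherry libraries (2.17, SE 0.21, adjusted p = 1.63e-08), while Rad9a (-3.99, SE 0.41, adjusted p = 3.95e-08) and Rad1 (-2.87, SE 0.38, adjusted p = 1.67e-06), 2 parts of the checkpoint clamp, were lower.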

How the data were processed

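RNA of 50 pools of 5 embryos was sequenced after SMART-Seq v4 amplification and Nextera XT preparation, per the labels' protocols. The deposited table holds 1 score per gene and library: whole numbers that behave as read counts the authors scaled by library and rounded, judged from the values, so no count model was used. The submitters' processing notes list the mm39 build, DESeq, DESeq2 1.36.0, featureCounts 2.0.4, STAR 2.7.10a, Trimmomatic 0.39 and Picard 3.0.0, with no role given here. No gene was at 0 everywhere: the lowest maximum over libraries was 6. No libraries were identical.

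Groups follow the sample titles. Values were divided by library totals and trimmed-mean (TMM) factors, which drop 30% of the ratios and 5% of the abundances. Both were computed on genes that reach a deposited value of 10 in as many libraries of the fit as its smallest group holds. Values were then tested on log2(CPM + 1) with limma 3.58.1 in R 4.3.3, with Benjamini-Hochberg adjustment over all genes tested. Each fit held the 3 arms of a stage together, or all 9 groups for comparisons between stages. A gene could thus pass the filter through a group outside the comparison. A gene was called at adjusted p under 0.05. The code was tested on simulated data. Factors on filtered genes were chosen after counts from both ways had been seen. Members, roles and lists were chosen with earlier results of these data known.

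Values by library are given for Gins3, Cdc45 and Tyms and, in each role, for up to 3 called members with the largest rise and 3 with the largest fall at the late 2-cell stage whose higher group mean is at least 10 CPM. Members called elsewhere, and up to 3 genes of each other list, are named. The main tests did not treat libraries as paired. Pairing by library number was judged by whether every pair's deviations correlated at r over 0.1. This held only for Duxbl and mCherry at the late 1-cell stage (4 pairs, r of 0.198 to 0.339). Correlations were weakly positive in every pair of several other comparisons. Such pairing comes from the data, not from the labels. With the replicate number as a block, no member's call changed for Duxbl and mCherry at the late 1-cell stage. Promoters were matched by symbol, and per-kb levels and exon overlaps use merged exons of a GENCODE annotation on GRCm38, not the mm39 build of the deposited table.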

Additional observations from a re-analysis of the deposited data

Results flagged for a closer look

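The effect of Duxbl against mCherry differed between the early and the late 2-cell stage, by limma's test of that difference, in 7 members that were higher and 24 that were lower at the late stage. Among licensing genes the difference of the effects on the log2 scale was 2.51 for Orc5, 0.97 for Orc6, 0.46 for Orc2, -2.39 for Cdc6, -2.36 for Orc1 and -1.96 for Cdt1. In the helicase it was -3.87 for Gins3, -3.10 for Cdc45 and -2.86 for Mcm3. For polymerase genes it was 1.19 for Pold3, 0.68 for Pole4, 0.74 for Pole3, -2.61 for Prim1, -2.33 for Pole and -2.08 for Prim2. For clamp and nucleotide genes it was -3.60 for Rpa2, -1.52 for Rfc4, -1.42 for Rfc2, 0.98 for Dut, -2.18 for Tyms and -2.12 for Rrm1. The calls of Orc2 and Pole3 were lost in 15 and 12 of the 22 removals of 1 library, and that of Dut in 5.

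Single libraries stood far from the rest of their group in 7 of the 189 groups of values checked for 21 genes, where chance alone gives about 1 in 20. At the late 2-cell stage Duxbl library 7 held 1410 CPM of Orc6 against 944 to 1050 in the others. Duxbl library 6 held 3.31 CPM of Pole against 9.81 to 13.6. Dut was at 87.1 CPM in mCherry library 5 against 212 to 299. At the early 2-cell stage uninjected library 5 held 5.44 CPM of Prim1 against 10.3 to 14.3, and uninjected library 4 held 131 CPM of Dut against 264 to 343. Rpa2 was at 13.1 CPM in mCherry library 1 against 20.7 to 25.0. Rrm1 was at 9.63 CPM in Duxbl library 7 against 20.1 to 23.7.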

How the results depend on the processing

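No member's call reversed under any alternative that was run. With library totals alone the higher count fell from 7 to 4 at the late 2-cell stage and from 7 to 3 for the difference between stages; totals, voom weights and the replicate block each gave 1 higher member in the uninjected early step, and a fit of the compared groups alone gave 3. The Duxbl early step had 3 lower members with totals alone, a pseudocount of 0.1 CPM or no filter, 9 with the compared groups alone and 0 without the libraries numbered 4 and 5, where the uninjected early step had 3. That removal leaves only libraries 6 and 7 in the Duxbl late 1-cell group. The cause was not tested. Leaving out 1 library gave 0 to 1 higher in the uninjected early step, 1 to 5 lower in the Duxbl early step, 4 to 8 higher for the difference between stages, and 5 to 9 higher with 24 to 26 lower at the late 2-cell stage. Scaling factors taken before the filter and the removal of the libraries numbered 4 and 5 were chosen after seeing the data; the former gave 6 higher and 25 lower.

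With the replicate number as a block, 7 members were higher and 25 lower at the late 2-cell stage, 1 and 7 in the uninjected early step, 16 and 17 in the uninjected late step, 0 and 6 in the Duxbl early step, 3 and 27 in the Duxbl late step, and 6 and 25 for the difference between stages. In none of the comparisons checked did every library deviate most like the one with its own number. In the Duxbl late step the block ended the calls of Pola1 and Lig1, and for the difference between stages that of Orc2. Voom weights ended the Duxbl late step calls of Gins3, Rrm1 and Lig1, and the fit of the compared groups alone those of Gins3, Rrm1, Mcm3, Pola1, Pola2 and Lig1. Depth is known only approximately, which limits statements on members near 0 such as Fen1. For Fen1 and Gins2 the overlap with an opposite-strand gene is a further limit.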
